A study of Homo sapiens with 8 samples.

Results

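The 9 genes described here encode pattern and lipid uptake receptors of monocytes and macrophages. They are the C-type lectin receptors CLEC4A, CLEC5A, CLEC7A and CLEC12A, the oxidised lipoprotein receptor OLR1, and the scavenger receptors CD36, MSR1, CD163 and STAB1. They were chosen by name, and all 9 are among the 26475 gene symbols of the deposited table. Bulk RNA was sequenced from MOLM-13, an established human acute myeloid leukemia (AML) line with a KMT2A-AF9 fusion. The cells, labelled wild type in all 4 groups, received the Menin inhibitor VTP50469 with the KAT6A inhibitor WM1119 (combination), VTP50469 alone, WM1119 alone, or DMSO. Menin tethers KMT2A and its fusion proteins to chromatin, KAT6A is a histone acetyltransferase, and the labels spell WM1119 as WM119. Each group holds 2 libraries, so 8 in all, and no source used here gives dose, duration or whether libraries of a group are separate cultures. P-values therefore measure the spread between these libraries of 1 cell line, which may be technical. The question was how the receptor genes differed after joint inhibition of Menin and KAT6A, and after each inhibitor alone.

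C-type lectin receptors recognise carbohydrates, lipids and products of dying cells through a shared fold. Some pass the signal on through an activating motif of their own or of the adaptor TYROBP, which the kinase SYK reads, while others carry an inhibitory motif that recruits phosphatases such as PTPN6. Scavenger receptors bind modified lipoproteins, fatty acids, haemoglobin complexes and debris and carry them into the cell. Many scavenger receptors are raised as monocytes become macrophages, and CLEC12A is also a known surface antigen of AML blasts.

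The library totals ran from 18092906 to 23634468 counts. Combination replicate 2 stood apart, with counts for 12972 genes against 14142 to 14544 in the other libraries. Of all genes with a count in any library, 1873 differed by more than 2-fold between the combination libraries on the log2(CPM + 1) scale. Within the other groups, 27 to 86 did. CPM is counts per 1000000 counts of the TMM-scaled library size. Log2 differences from the mean of the DMSO libraries ran with transcript length in combination replicate 2 (Spearman's rho -0.557) and in WM1119 replicate 1 (rho -0.523). These values run across 11416 genes, which are not independent replicates, and treatment and library quality cannot be told apart in them. Values of both combination libraries are therefore given for each receptor gene, and its comparison with DMSO was repeated without either.

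The labelled cell type was checked against markers. Of 9 listed genes of an AML line, ANPEP alone was at 0 in the combination and in DMSO, and their summed level was 712 to 758 CPM in the combination and 666 to 682 CPM in DMSO. Within that list, by summed counts and with no test, FLT3 (4715 counts in the combination and 9568 in DMSO) and MEIS1 (301 and 1216 counts) were lower in the combination, and SPI1 (12475 and 5722 counts) was higher. Monocyte and macrophage markers, 12 genes dominated by LYZ, summed to 6510 to 8730 CPM in the combination, 1820 to 2270 CPM with VTP50469, 1560 to 1620 CPM with WM1119 and 604 to 650 CPM in DMSO. The markers did not all move together. Of 8 tested, 5 were called as higher in the combination against DMSO, beside 5.85% of all 12401 genes tested. VCAN held 226 counts in the combination and 1423 in DMSO. CD14 held 69 summed counts in the combination and 9 to 12 in each other group. Its place in the test therefore rested mainly on the combination. FCGR3A, a marker of non-classical monocytes, was at 0 in the combination and in DMSO. Of 10 endothelial markers, which matter because OLR1, CD36 and STAB1 are also endothelial genes, 9 were at 0 in both groups, and all 5 adipocyte markers were at 0 in every library. T and NK cell markers summed to 33.3 to 84.3 CPM in the combination and 22.1 to 25.2 CPM in DMSO, mostly from NKG7. The part of these shifts in the results below was not tested, and in bulk RNA more cells of a type cannot be told apart from more RNA per cell.

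All 9 genes were accounted for, and 5 passed the filter on low counts. CLEC5A, CLEC12A and CD36 would have passed on the DMSO libraries alone, MSR1 passed through WM1119 and DMSO, and OLR1 passed only through the combination, so that OLR1 could enter the test only by being higher there. CLEC4A, CLEC7A, CD163 and STAB1 held too few counts to be tested. Against DMSO, 3 of the 9 genes rose in the combination (CLEC5A, CLEC12A and OLR1) and 0 fell, by the quasi-likelihood test of edgeR at an adjusted p under 0.05. Of all 12401 genes tested in this comparison, 9.29% were called, 5.85% as higher and 3.44% as lower. OLR1 aside, 2 of the remaining 8 genes rose. DESeq2 also called 3 of the receptor genes, among 2288 genes in all, against 1152 by edgeR. Without combination replicate 2, edgeR called 3 of them among 1841 genes in all, and without combination replicate 1 it called 5 among 7756 genes, so that the second count stood beside a far larger background. With only the libraries of these groups in the fit, or without DMSO replicate 1 or DMSO replicate 2, edgeR called 0 of them.

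**Figure D1:**
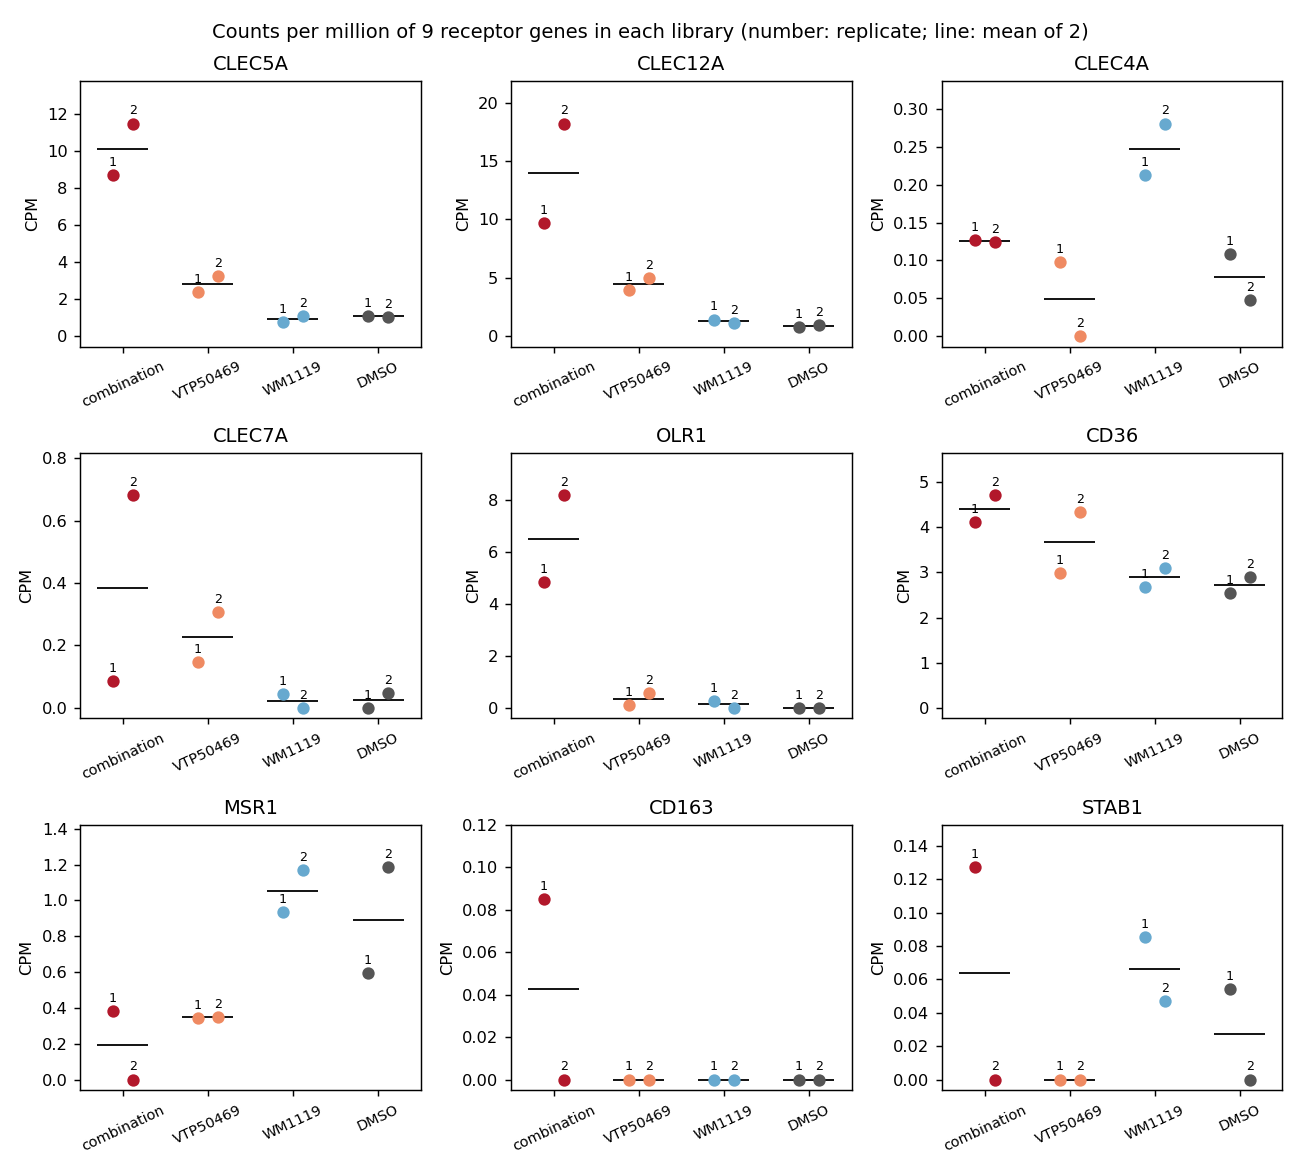
Level of the 9 receptor genes in each of 8 libraries, in CPM on a linear axis from 0 that differs between panels; points are libraries with their replicate number and lines are means of 2. CLEC5A, CLEC12A and OLR1 were highest in both combination libraries (8.69 and 11.5, 9.71 and 18.2, and 4.83 and 8.18 CPM), whereas the panels of CLEC4A, CLEC7A, CD163 and STAB1 stayed below 1 CPM.

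CLEC5A is an activating receptor that has no signalling motif of its own and depends on TYROBP and, in mouse, also on HCST. The gene lies on the minus strand of chromosome 7 (chr7:141927357-141947007, hg38, GENCODE release 44). It had 8.69 and 11.5 CPM in the combination libraries, 2.35 and 3.25 CPM with VTP50469, 0.724 and 1.08 CPM with WM1119, and 1.08 and 1.04 CPM in DMSO. Both combination libraries lay above every other library, both VTP50469 libraries came next, and WM1119 overlapped DMSO. The mean was 10.1 ± 1.96 CPM in the combination and 1.06 ± 0.0274 CPM in DMSO (SD, n = 2 each). The log2 difference was 3.24 (SE 0.33), which is 9.43-fold, with an adjusted p of 0.00363 by edgeR. The adjusted p of edgeR was 0.0706 without DMSO replicate 1, 0.0655 without DMSO replicate 2, and 0.0686 in a fit of only these groups, so that the call did not survive any of these. Without combination replicate 2 the log2 difference was 3.04, and the call held with an adjusted p of 0.00116 by edgeR. CLEC5A overlaps exons of MGAM on the opposite strand, and MGAM held 9 counts in the combination and 2 in DMSO. The strand setting of the counting is not given, so reads where these exons overlap may count for either gene.

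CLEC12A is an inhibitory receptor that recruits PTPN6 and PTPN11 and binds uric acid crystals. It lies on the plus strand of chromosome 12 (chr12:9951316-9995694). It had 9.71 and 18.2 CPM in the combination, 3.97 and 4.96 CPM with VTP50469, 1.41 and 1.08 CPM with WM1119, and 0.758 and 0.901 CPM in DMSO. No group overlapped another: the combination was highest, followed by VTP50469, WM1119 and DMSO, although the step from WM1119 to DMSO was small. The mean was 14.0 ± 6.02 CPM in the combination and 0.829 ± 0.102 CPM in DMSO (SD, n = 2 each). The log2 difference was 4.06 (SE 0.40), which is 16.6-fold, with an adjusted p of 0.00344 by edgeR. The call was lost without DMSO replicate 1 (adjusted p = 0.0674 by edgeR), without DMSO replicate 2 (0.0564) and in a fit of only these groups (0.0757). It held without combination replicate 2, where the log2 difference was 3.55 and the adjusted p of edgeR 0.000385. CLEC1B overlaps exons of CLEC12A on the opposite strand and held 0 counts in the combination and 1 in DMSO. Reads where the exons of CLEC12A and CLEC1B overlap may likewise count for either gene.

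The DNA before the RefSeq starts of CLEC5A and CLEC12A is shown because these receptors passed the test together in the combination. RefSeq promoter windows (GRCh38.p14) were matched by symbol for 5 of the 9 genes, and among the 3 genes that rose, for CLEC5A and CLEC12A. The 250 bases before each RefSeq start are written along the strand of the gene. These starts are not the outer ends of the GENCODE genes given above, and the CLEC12A window lies wholly, and the CLEC5A window partly, inside the GENCODE gene. Capitals mark matches to a PU.1 core (GAGGAA) or a RUNX core (TGTGGT), myeloid factors whose sites are short, and no match overlaps another.
CLEC5A, chr7:141946975-141947224, minus strand: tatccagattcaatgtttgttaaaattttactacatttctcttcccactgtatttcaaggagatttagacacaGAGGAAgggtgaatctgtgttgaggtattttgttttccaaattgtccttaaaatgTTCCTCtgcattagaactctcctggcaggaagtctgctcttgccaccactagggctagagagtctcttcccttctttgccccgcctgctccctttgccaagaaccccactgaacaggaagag
CLEC12A, chr12:9971159-9971408, plus strand: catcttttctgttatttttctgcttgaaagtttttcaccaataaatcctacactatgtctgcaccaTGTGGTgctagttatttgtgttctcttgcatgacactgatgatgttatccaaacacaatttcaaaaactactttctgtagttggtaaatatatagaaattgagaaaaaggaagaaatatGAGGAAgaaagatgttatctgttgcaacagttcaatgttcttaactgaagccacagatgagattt

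The CLEC5A window held the PU.1 core on both strands, beginning 177 and 122 bases before the start. The CLEC12A window held it once, 65 bases before the start, and the RUNX core once, 184 bases before the start. Over 35097 RefSeq windows of the same 250 bases, searched on both strands, 23.6% held the PU.1 core and 11.0% the RUNX core. A C/EBP pattern (TTGCNNAA or TTACNNAA) was in 15.3% of the windows and an AP-1 pattern (TGANTCA) in 6.57%, and neither was in the 2 windows shown. GC content was 43.6% in the CLEC5A window and 32.8% in the CLEC12A window. These are matches of letters, and binding of a factor was not measured.

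OLR1, the lectin-like receptor for oxidised low density lipoprotein, has the C-type lectin fold and is found on endothelium and on macrophages that take up lipid. It lies on the minus strand of chromosome 12 (chr12:10158301-10172138). The deposited counts were 114 and 132 in the combination, 2 and 13 with VTP50469, 6 and 0 with WM1119, and 0 and 0 in DMSO. The levels were 4.83 and 8.18 CPM in the combination, 0.0981 and 0.571 CPM with VTP50469, 0.256 and 0 CPM with WM1119, and 0 CPM in both DMSO libraries. Both combination libraries exceeded every other library, and the VTP50469 and WM1119 libraries overlapped. Set against a floor of 3 counts over the DMSO libraries (0.0758 CPM), OLR1 was at least 81.7-fold higher in the combination (246 counts against 0), with an adjusted p of 0.0244 by edgeR. The call was lost without DMSO replicate 1 (adjusted p = 0.159 by edgeR), DMSO replicate 2 (0.158) or VTP50469 replicate 2 (0.0514), and in a fit of only these groups (0.0804). It held without combination replicate 2 (adjusted p = 0.0104 by edgeR).

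CD36 takes up long chain fatty acids and oxidised lipoproteins and binds thrombospondin. It lies on the plus strand of chromosome 7 (chr7:80369575-80679277). It had 4.11 and 4.71 CPM in the combination, 2.99 and 4.35 CPM with VTP50469, 2.68 and 3.10 CPM with WM1119, and 2.54 and 2.89 CPM in DMSO. The combination libraries lay above both DMSO libraries, but one VTP50469 library lay between the combination libraries. The mean was 4.41 ± 0.422 CPM in the combination and 2.72 ± 0.247 CPM in DMSO (SD, n = 2 each), a log2 difference of 0.69 (SE 0.28) that did not pass the test (unadjusted p = 0.0428, adjusted p = 0.152 by edgeR). The 95% interval of that log2 difference ran from 0.03 to 1.36. CD36 was the only one of the 9 genes above 2 CPM in every library.

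MSR1, the class A macrophage scavenger receptor, binds acetylated lipoproteins and bacterial surface polymers. It lies on the minus strand of chromosome 8 (chr8:16107878-16567490). It had 0.382 and 0 CPM in the combination, 0.343 and 0.351 CPM with VTP50469, 0.937 and 1.17 CPM with WM1119, and 0.595 and 1.19 CPM in DMSO. The combination and VTP50469 libraries lay below every WM1119 and DMSO library, which overlapped each other. The log2 difference from DMSO in the combination was -2.05 (SE 0.95, 95% interval -4.30 to 0.20) and did not pass the test (adjusted p = 0.19 by edgeR). It rested on 9 counts in the combination against 36 in DMSO. Without combination replicate 1, which leaves replicate 2 with 0 counts, the log2 difference was -7.21, a fitted value that is no bound. MSR1 was the only tested gene of the 9 with a negative log2 difference in the combination.

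**Figure D2:**
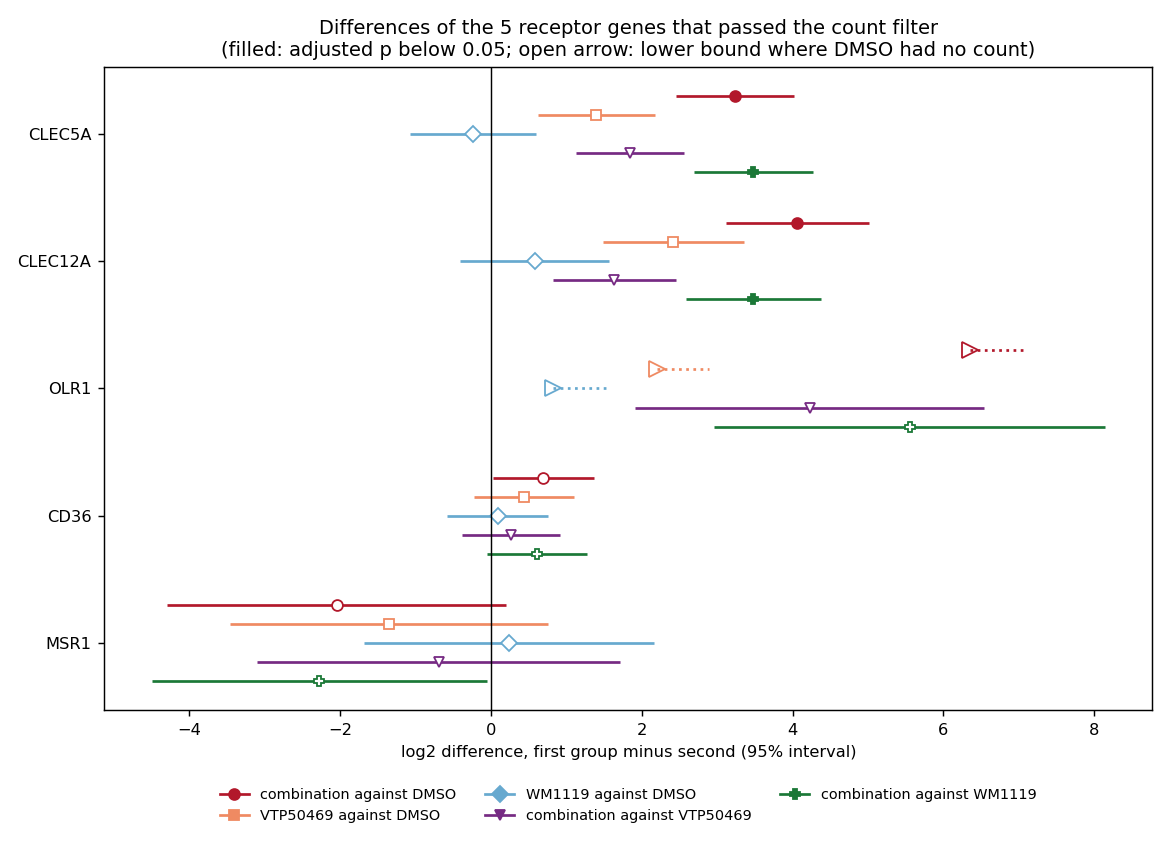
Log2 differences of the 5 receptor genes that passed the count filter (rows), in 5 comparisons (symbols), with 95% intervals of edgeR; filled symbols have an adjusted p below 0.05 and open arrows for OLR1 are lower bounds, since DMSO held no count. CLEC5A (3.24) and CLEC12A (4.06) lay clear of 0 in the combination against DMSO, CD36 (0.69) was near 0, and MSR1 (-2.05) had intervals spanning about 4 log2 units.

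The other 4 receptor genes were at the limit of detection. CLEC7A, the receptor for fungal beta-glucan, lies between CLEC12A and OLR1 on the minus strand of chromosome 12 (chr12:10116777-10130258). It held 2 and 11 counts in the combination, 3 and 7 with VTP50469, 1 and 0 with WM1119, and 0 and 1 in DMSO. Counts of the combination and VTP50469 thus lay above WM1119 and DMSO. Pooled over libraries, the ratio to DMSO was 12.9 in the combination (13 counts against 1, 95% counting interval 1.95 to 550) and 9.17 with VTP50469 (10 against 1, interval 1.30 to 398). Without the count filter, edgeR gave CLEC7A an adjusted p of 0.238 in the combination against DMSO.

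CLEC4A is an inhibitory receptor of dendritic cells and monocytes, on the plus strand of chromosome 12 (chr12:8123617-8138607). It held 3 and 2 counts in the combination, 2 and 0 with VTP50469, 5 and 6 with WM1119, and 2 and 1 in DMSO. WM1119 had the highest counts, and its ratio to DMSO was 3.24 (11 counts against 3, 95% counting interval 0.855 to 18.1), an interval that includes 1. CD163, which takes up complexes of haemoglobin and haptoglobin (chromosome 12, minus strand, chr12:7470811-7503893), held 2 counts in combination replicate 1 and 0 in the other 7 libraries. With these counts, the 95% Poisson upper limit of CD163 was 0.182 CPM in the combination and 0.0932 CPM in DMSO. CD163L1, which overlaps exons of CD163 on the same strand, held 46 counts in the combination and 13 in DMSO. STAB1, an endocytic receptor of macrophages and sinusoidal endothelium (chromosome 3, plus strand, chr3:52495338-52524495), held 3 and 0 counts in the combination, 0 and 0 with VTP50469, 2 and 1 with WM1119, and 1 and 0 in DMSO. No group difference in CLEC4A, CD163 or STAB1 was detectable at this depth. All counting intervals and floors cover counting error only.

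Divided by the length of the canonical transcript, levels can be compared roughly between genes. Differences from DMSO ran with transcript length in combination replicate 2 (Spearman's rho -0.557), which this division does not remove. CLEC12A (1555 bases) is shorter than CLEC5A (3502) and CD36 (4598). In the combination, the order was CLEC12A (8.98 CPM per kb), CLEC5A (2.88), OLR1 (2.65), CD36 (0.96), CLEC7A (0.151), CLEC4A (0.0969), MSR1 (0.0527), CD163 (0.0104) and STAB1 (0.00802). In DMSO, CD36 (0.591 CPM per kb) and CLEC12A (0.533) led, followed by CLEC5A (0.303) and MSR1 (0.246), and the other 5 genes were at or below 0.0601. CLEC5A and OLR1 were close to each other in the combination, and CD36 and CLEC12A in DMSO, and their order was not tested.

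VTP50469 alone gave 0 called receptor genes by edgeR, with 3 at an unadjusted p under 0.05 and 1 called by DESeq2 (CLEC12A). The background was 0.169% of 12401 genes called and 6.75% at an unadjusted p under 0.05. CLEC12A had a log2 difference of 2.42 (SE 0.39, 4.47 ± 0.701 CPM with VTP50469 and 0.829 ± 0.102 CPM in DMSO, SD, n = 2 each), with an adjusted p of 0.105 by edgeR. Both VTP50469 libraries lay above both DMSO libraries by a wide margin. The adjusted p of CLEC12A was 0.000123 with DESeq2, which called 204 genes in all, against 21 in the main fit. With edgeR it was 0.0373 without the count filter (50 genes called) and 0.00105 in a fit of only these groups (1332 genes called). The log2 difference of CLEC12A was 2.42 without combination replicate 1 and 2.42 without combination replicate 2. CLEC5A had a log2 difference of 1.40 (SE 0.33, adjusted p = 0.254 by edgeR), with a mean of 2.80 ± 0.634 CPM with VTP50469 and 1.06 ± 0.0274 CPM in DMSO (SD, n = 2 each). In the fit of only these groups, with 1332 genes called, the adjusted p of CLEC5A was 0.0266 by edgeR. OLR1 was at least 4.58-fold higher with VTP50469 (15 counts against 0), with an adjusted p of 0.718 by edgeR. CD36 (log2 difference 0.43) and MSR1 (-1.35) each had an adjusted p of 0.999 by edgeR.

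WM1119 alone also gave 0 called receptor genes by edgeR, with 0 at an unadjusted p under 0.05 and 0 called by DESeq2. No gene at all was called (0% of 12401, with 612 at an unadjusted p under 0.05 and 82 called by DESeq2). The log2 differences were 0.58 for CLEC12A (95% interval -0.41 to 1.57), -0.24 for CLEC5A (-1.08 to 0.59), 0.09 for CD36 (-0.58 to 0.75) and 0.23 for MSR1 (-1.69 to 2.16). OLR1 held 6 counts, all in WM1119 replicate 1, against 0 in DMSO. The intervals of CLEC5A and CD36 exclude a rise of 1 log2 unit, whereas those of CLEC12A and MSR1 do not. The 3 comparisons with DMSO share the DMSO libraries, so that they are not independent of each other.

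The combination was also set against each inhibitor. Against WM1119, edgeR called 2 of the 9 genes as higher, CLEC5A and CLEC12A, with 1.43% of 12401 genes called in all and 1.02% as higher. CLEC5A averaged 10.1 ± 1.96 CPM in the combination and 0.901 ± 0.251 CPM with WM1119 (SD, n = 2 each), a log2 difference of 3.48 (SE 0.33, adjusted p = 0.00961 by edgeR). CLEC12A averaged 14.0 ± 6.02 CPM in the combination and 1.24 ± 0.231 CPM with WM1119, also a log2 difference of 3.48 (SE 0.38, adjusted p = 0.0147 by edgeR). In both genes the groups were well apart. The call of CLEC5A was lost without WM1119 replicate 1 (adjusted p = 0.157 by edgeR) or WM1119 replicate 2 (0.12), and in a fit of only these groups (0.209). The call of CLEC12A was lost without either DMSO library (0.0593 and 0.0596), either VTP50469 library (0.057 and 0.06) or either WM1119 library (0.166 and 0.18), and in a fit of only these groups (0.244). OLR1 had a log2 difference of 5.55 (SE 1.09, adjusted p = 0.0886 by edgeR) and was called without combination replicate 1 (0.00294) or combination replicate 2 (0.0423), in refits that called 6915 and 525 genes. OLR1 was also called with DESeq2 (adjusted p = 3.33e-05), without the count filter (0.0307 by edgeR) and with an offset for transcript length and GC content (0.0279 by edgeR). These settings called 714, 246 and 937 genes, against 177 in the main fit. Its log2 difference from WM1119 was 4.63 without WM1119 replicate 2 and 10.1 without WM1119 replicate 1, a fitted value that is no bound, since replicate 2 held 0 counts. MSR1 had a log2 difference of -2.28 (SE 0.94, adjusted p = 0.292 by edgeR), and was called without combination replicate 1 (0.00638).

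Against VTP50469, edgeR called 0 of the 9 genes, with 3 at an unadjusted p under 0.05 and 3 called by DESeq2. The background was 0.395% of 12401 genes called and 17.9% at an unadjusted p under 0.05. CLEC5A had a log2 difference of 1.84 (SE 0.30, 95% interval 1.12 to 2.56, adjusted p = 0.0675 by edgeR). CLEC12A had 1.64 (SE 0.34, 95% interval 0.83 to 2.45, adjusted p = 0.103 by edgeR) and OLR1 had 4.22 (SE 0.97, 95% interval 1.91 to 6.54, adjusted p = 0.135 by edgeR). In these 3 genes both combination libraries were above both VTP50469 libraries, as they were in 22.8% of all 12401 genes. DESeq2 gave adjusted p-values of 0.000183 for CLEC5A, 0.00414 for CLEC12A and 0.00155 for OLR1. It called 684 genes in all, against 49 by edgeR. Without combination replicate 1, edgeR called CLEC5A (adjusted p = 0.00147), CLEC12A (0.000753), OLR1 (0.00458) and MSR1 (0.0329), in a refit that called 7222 genes. Without combination replicate 2, edgeR called CLEC5A alone (0.0415) among 325 genes. CD36 did not differ beyond its spread (log2 difference 0.26, 95% interval -0.39 to 0.91).

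The interaction term asks whether the log2 difference of the combination departs from the sum of the differences of the single inhibitors. By edgeR, 0 of the 9 genes were called, 1 was at an unadjusted p under 0.05, and DESeq2 called 0. The background was 0% of 12401 genes (273 at an unadjusted p under 0.05, and 5 called by DESeq2). CLEC5A had an interaction of 2.08 (SE 0.46, 95% interval 0.98 to 3.18, unadjusted p = 0.00291, adjusted p = 0.938 by edgeR). CLEC12A had 1.06 (SE 0.54, 95% interval -0.22 to 2.34, adjusted p = 0.938 by edgeR). Without combination replicate 1 the adjusted p of edgeR was 0.0166 for CLEC5A and 0.0339 for CLEC12A, in a refit that called 3938 genes. No interaction is given for OLR1, since the value depends on how 0 counts in DMSO are treated.

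OLR1, CLEC7A and CLEC12A lie in a cluster of lectin-like receptor genes on chromosome 12, and the genes of that region were described after their values were seen. Within 500000 bases of OLR1, 23 other genes are in the table, and 10 of them were tested. In the combination against DMSO, 3 were called as higher and 4 as lower, beside 5.85% and 3.44% of all 12401 genes. TMEM52B, on the opposite strand, overlaps an end of the OLR1 gene body without shared exons, and most of it lies outside OLR1. TMEM52B held 96 counts in the combination, 23 with VTP50469, 7 with WM1119 and 1 in DMSO (ratio of combination to DMSO 95.6, 95% counting interval 16.8 to 3820, adjusted p = 0.0198 by edgeR). The strand setting of the counting is not given, so reads outside annotated exons cannot be told apart in the stretch that TMEM52B and OLR1 share. GABARAPL1, an autophagy gene on the far side of TMEM52B, held 600 counts in the combination and 182 in DMSO (log2 difference 1.74, SE 0.21, adjusted p = 0.00623 by edgeR). CLEC12A was the other gene called as higher.

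Beyond GABARAPL1, the natural killer receptor genes KLRK1, KLRC3 and KLRC2 of the same cluster went the other way. KLRK1 held 0 counts in the combination and 42 in DMSO (at least 14.1-fold lower, adjusted p = 0.037 by edgeR), and KLRC3 held 0 counts in the combination and 32 in DMSO (at least 10.7-fold lower, adjusted p = 0.0331). KLRC2 held 3 counts in the combination and 87 in DMSO (ratio 0.0343, 95% counting interval 0.00695 to 0.104, adjusted p = 0.0167 by edgeR). KLRK1, KLRC3 and KLRC2 held 6, 5 and 7 counts with VTP50469 and 26, 9 and 48 with WM1119. Other such genes of the cluster did not clearly fall. KLRC4 held 5 counts in the combination and 7 in DMSO, KLRF1 4 and 0, and KLRD1 0 in every group. KLRC3 passed the count filter through DMSO alone, so that it could enter the test only by being higher there. KLRC2 and KLRC3 are highly similar in sequence, so the split of reads between them is uncertain. CLEC2D, at the other end of the region, fell to 847 counts in the combination, against 1686 in DMSO (log2 difference -1.03, SE 0.16, adjusted p = 0.0135 by edgeR). Thus calls in both directions stood within the same stretch of chromosome 12. Without either DMSO library, edgeR made none of these calls, and the calls of KLRK1, KLRC2 and KLRC3 were lost without any 1 of the 6 libraries outside the combination (adjusted p up to 0.21, 0.138 and 0.226). The call of TMEM52B was lost also without either VTP50469 library (up to 0.186 over all such refits). Around CLEC4A and CLEC5A, 5 and 3 neighbours were tested, and their lowest adjusted p-values by edgeR were 0.0613 (SLC2A14) and 0.115 (AGK).

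**Figure D3:**
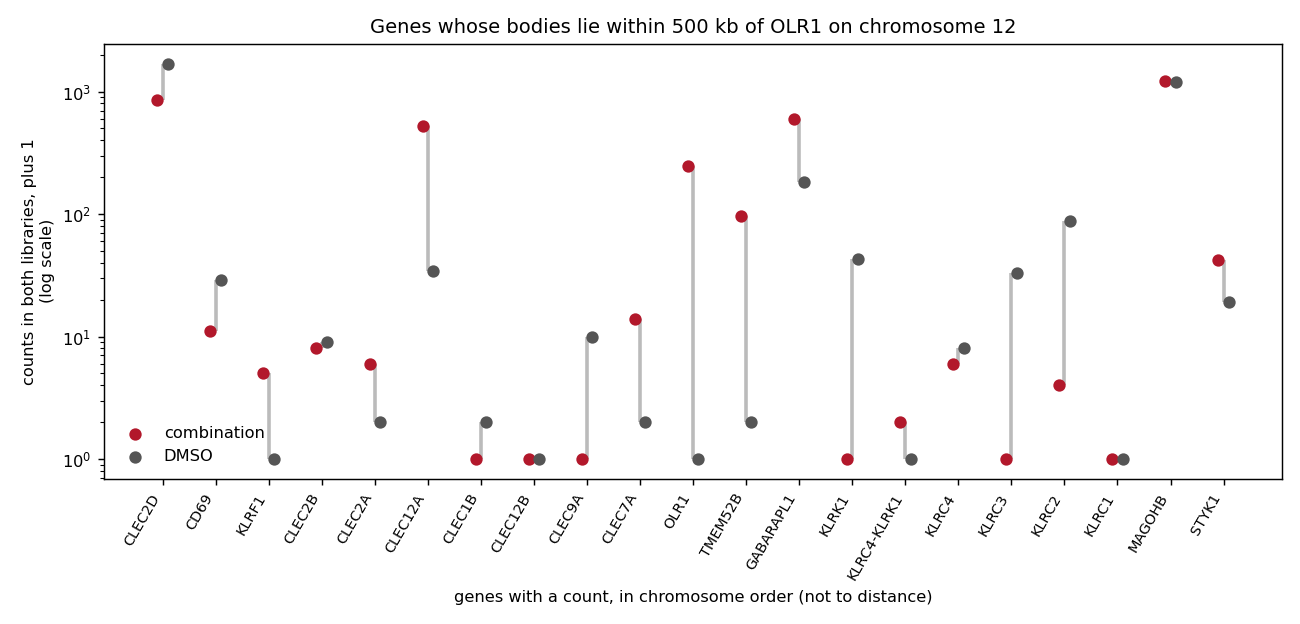
Counts summed over 2 libraries, plus 1, on a log axis, for genes with a count whose bodies lie within 500000 bases of OLR1, in chromosome order and not to distance; red points are the combination and grey points DMSO. CLEC12A (523 against 33 counts), OLR1 (246 against 0) and TMEM52B (96 against 1) were higher in the combination, and KLRK1 (0 against 42), KLRC3 (0 against 32) and KLRC2 (3 against 87) lower.

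Of 43 other C-type lectin receptor genes listed, 11 were tested, with 0 higher and 1 lower in the combination against DMSO, and a median log2 difference of -0.27 against 0.01 over all 12401 genes. At an unadjusted p under 0.05, edgeR had 2 higher and 3 lower, beside 30.3% of all genes in either direction, and DESeq2 called 2 as higher and 1 as lower. The gene that fell was CLEC2D, the ligand of an inhibitory natural killer receptor, which had 23.4 and 18.2 CPM in the combination and 42.1 and 43.1 CPM in DMSO. MRC2, a collagen uptake receptor (log2 difference 0.63, adjusted p = 0.0537 by edgeR), CLEC11A, a secreted growth factor (1.24, adjusted p = 0.0741, with 797 and 1820 CPM in the combination and 541 and 569 CPM in DMSO), and CLECL1 (-0.67, adjusted p = 0.0948) did not pass. As 1 library was left out, the log2 difference of MRC2 ran from 0.439 to 0.798. How many genes of the list were called depended on the library left out. The log2 difference of CLEC11A was 1.70 without combination replicate 1 and 0.54 without combination replicate 2. The call of CLEC2D was lost without either DMSO library (up to 0.134). Counts stayed at 0 to 3 in the combination and 0 to 1 in DMSO for CLEC4D, CLEC4E and CLEC6A, fungal receptors related to CLEC7A that were singled out after their values were seen.

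Of 22 other scavenger receptor genes, 14 were tested, with 1 higher and 0 lower and a median log2 difference of 0.62. At an unadjusted p under 0.05, 6 were higher and 2 lower by edgeR, beside 30.3% of all genes in either direction. DESeq2 called 4 as higher and 2 as lower. The 1 gene of 14 called as higher is near the background of 5.85%. The gene that rose was TREM2, a lipid sensing receptor that signals through TYROBP, with 3.14 and 9.67 CPM in the combination and 0.866 and 0.569 CPM in DMSO (log2 difference 3.14, adjusted p = 0.0293 by edgeR). CD68, a lysosomal glycoprotein of macrophages (log2 difference 0.80, adjusted p = 0.066), and VLDLR, a lipoprotein receptor (-0.80, 0.0638), did not pass by edgeR. The call of TREM2 was lost without any 1 of the 6 libraries outside the combination (adjusted p up to 0.221 by edgeR). As 1 library was left out, the log2 difference ran from 0.451 to 1.08 for CD68 and from -1.13 to -0.539 for VLDLR. The count of scavenger receptor genes called also depended on the library left out.

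Adaptors and kinases that act below the lectin receptors all passed the count filter, though CARD9 and FCER1G were low. The adaptor FCER1G is named after its values were seen. FCER1G averaged 1.37 CPM in the combination, 0.313 CPM with VTP50469, 0.371 CPM with WM1119 and 0.251 CPM in DMSO (combination against DMSO, adjusted p = 0.125 by edgeR). All 18 listed genes were tested, with 3 higher and 0 lower in the combination against DMSO and a median log2 difference of 0.34. Over all 12401 genes, 5.85% were called as higher and 3.44% as lower. By edgeR 7 were higher and 0 lower at an unadjusted p under 0.05, beside 30.3% of all genes in either direction. FCER1G is among these 7 (unadjusted p = 0.0284 by edgeR), and its place in the test rested mainly on the combination, where it was highest. DESeq2 called 5 as higher and 0 as lower. TYROBP, the adaptor of CLEC5A and TREM2, had 57.8 and 143 CPM in the combination, 16.1 and 21.4 CPM with VTP50469, 35.9 and 29.6 CPM with WM1119, and 17.4 and 19.4 CPM in DMSO (combination against DMSO, log2 difference 2.45, adjusted p = 0.0184 by edgeR). Its VTP50469 libraries overlapped DMSO, whereas those of CLEC5A lay above DMSO. LSP1, an actin binding protein that the lectin receptor CD209 recruits, had 197 and 409 CPM in the combination and 25.9 and 24.5 CPM in DMSO (log2 difference 3.59, adjusted p = 0.00375 by edgeR). PRKCD, a kinase between SYK and CARD9, had 189 CPM in each combination library and 120 and 119 CPM in DMSO (log2 difference 0.66, adjusted p = 0.0195 by edgeR). The adaptor HCST had 4.62 and 12.9 CPM in the combination and 1.52 and 1.99 CPM in DMSO (log2 difference 2.30, adjusted p = 0.0556 by edgeR).

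SYK, CARD9, PTPN6 and PTPN11 were singled out for their roles after their values were seen. SYK averaged 247 CPM in the combination and 187 CPM in DMSO (adjusted p = 0.118 by edgeR), and CARD9, the adaptor below CLEC7A, averaged 0.726 CPM in the combination and 0.803 CPM in DMSO (adjusted p = 0.931). PTPN6 averaged 291 CPM in the combination and 220 CPM in DMSO (adjusted p = 0.172 by edgeR), and PTPN11 averaged 143 CPM in the combination and 271 CPM in DMSO (adjusted p = 0.174). None of the 4 passed the test. The calls of LSP1 and TYROBP were lost without either DMSO library (adjusted p up to 0.0706 and 0.177 by edgeR), and the call of PRKCD without any 1 of the 6 libraries outside the combination (up to 0.21). As 1 library was left out, the log2 difference of HCST ran from 1.40 to 2.85, and how many genes of the list were called depended on that library.

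Lipid uptake, storage and efflux, the pathway of OLR1, CD36 and MSR1, had 15 of 19 genes tested, with 1 higher, 1 lower and a median log2 difference of 0.32. These counts stand beside 5.85% of all genes called as higher and 3.44% as lower. At an unadjusted p under 0.05, 3 were higher and 1 lower by edgeR, beside 30.3% of all genes in either direction. PLIN2, the coat protein of lipid droplets, had 17.3 and 14.9 CPM in the combination and 32.8 and 38.9 CPM in DMSO (log2 difference -1.15, adjusted p = 0.00936 by edgeR). NPC2, which moves cholesterol out of lysosomes, had 75.6 and 151 CPM in the combination and 31.2 and 32.7 CPM in DMSO (log2 difference 1.83, adjusted p = 0.0198 by edgeR). PLIN2 thus fell while OLR1 and NPC2 rose in the same libraries. The lysosomal lipase LIPA (log2 difference 0.68, adjusted p = 0.0556) and the apolipoprotein APOC1 (1.96, 0.0702) did not pass by edgeR. The call of PLIN2 was lost without either DMSO library (adjusted p up to 0.108 by edgeR), and that of NPC2 also without either VTP50469 library or WM1119 replicate 2 (up to 0.182). As 1 library was left out, the log2 difference ran from 0.444 to 0.884 for LIPA and from 0.826 to 2.59 for APOC1. How many genes of the list were called depended on the library left out.

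Haemoglobin and haem handling, the pathway that CD163 opens in macrophages, had 10 of 11 genes tested, with 4 higher, 0 lower and a median log2 difference of 0.88. The shares over all 12401 genes were 5.85% higher and 3.44% lower. By edgeR 5 were higher and 0 lower at an unadjusted p under 0.05, beside 30.3% of all genes in either direction. DESeq2 also called 5 as higher and 0 as lower. HP encodes haptoglobin, the carrier of the complex that CD163 takes up. It had 32.6 and 86.5 CPM in the combination, 5.35 and 8.43 CPM with VTP50469, 1.79 and 0.61 CPM with WM1119, and 0.379 and 0.617 CPM in DMSO (combination against DMSO, log2 difference 6.87, adjusted p = 0.00476 by edgeR). Its receptor CD163, by contrast, held 2 counts. BLVRB, a biliverdin reductase, had 28.9 and 65.8 CPM in the combination and 12.2 and 10.3 CPM in DMSO (adjusted p = 0.024 by edgeR). The haem transporter SLC48A1 had 26.6 and 47.4 CPM in the combination and 14.4 and 14.0 CPM in DMSO (adjusted p = 0.0276 by edgeR). FTL, the light chain of ferritin, had 3120 and 6010 CPM in the combination and 1920 and 1950 CPM in DMSO (adjusted p = 0.0468 by edgeR). In each of these genes replicate 2 was the higher of the combination libraries. HMOX1, the haem oxygenase of the list, is named after its values were seen. It averaged 7.49 CPM in the combination and 5.89 CPM in DMSO and did not pass (log2 difference 0.35, adjusted p = 0.492 by edgeR). The call of HP was lost without either DMSO library (adjusted p up to 0.0848 by edgeR), and those of BLVRB, SLC48A1 and FTL without any 1 of the 6 libraries outside the combination (up to 0.2, 0.206 and 0.275). How many genes of the list were called depended on the library left out.

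**Figure D4:**
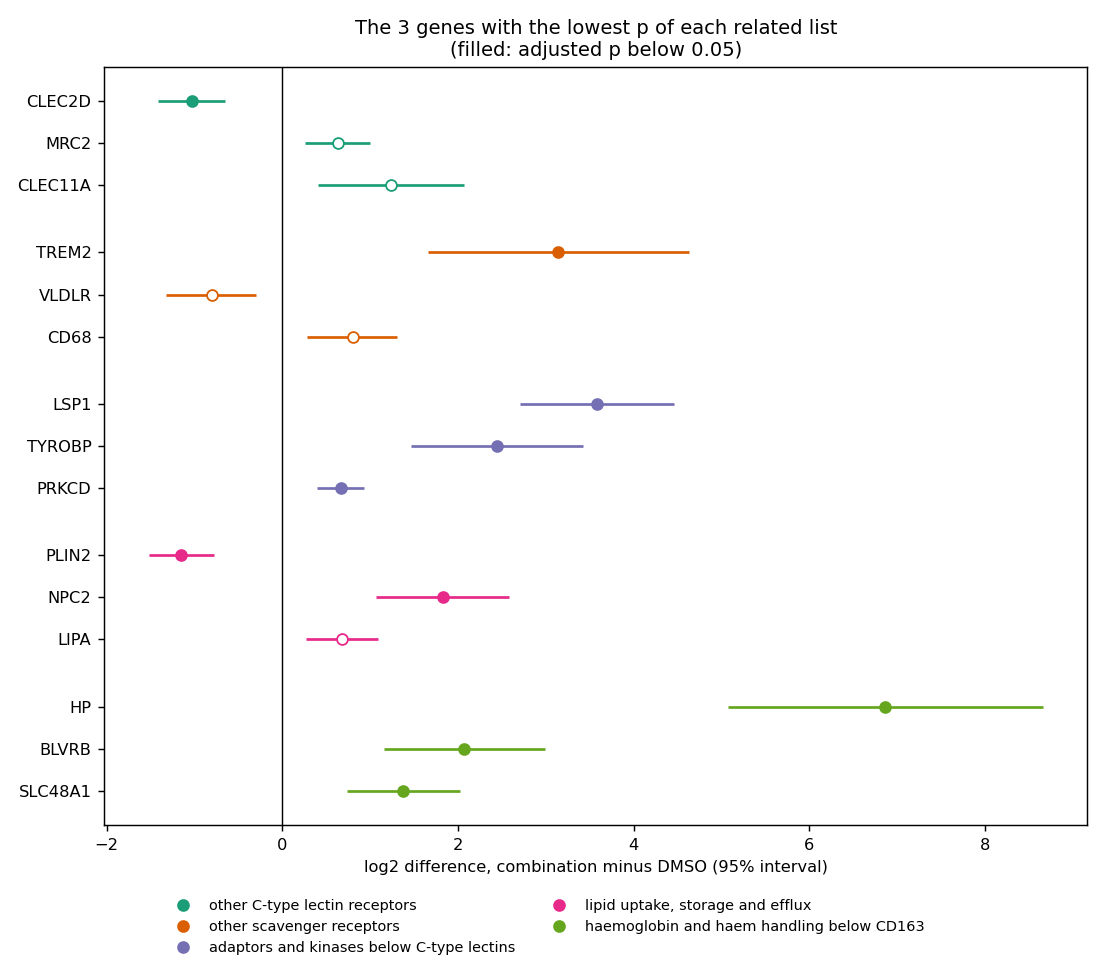
Log2 difference of the combination minus DMSO with its 95% interval from edgeR, for the 3 genes of lowest p in each of 5 related lists (colours); filled points have an adjusted p below 0.05. HP (6.87), LSP1 (3.59) and TREM2 (3.14) lay farthest to the right, and PLIN2 (-1.15) and CLEC2D (-1.03) were the filled points below 0.

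Against WM1119, edgeR called CLEC2D as lower in the combination (log2 difference -0.98, adjusted p = 0.0399), and LSP1 (2.52, 0.0279), HP (5.61, 0.0182) and PPARG as higher. PPARG, a lipid sensing nuclear receptor that activates CD36, was the gene of the lipid list called there, and is named after its values were seen. It had 2.16 and 3.66 CPM in the combination, 1.62 and 2.68 CPM with VTP50469, 0.383 and 0.188 CPM with WM1119, and 1.41 and 1.47 CPM in DMSO. Its WM1119 libraries were the lowest, and those of CD36 overlapped DMSO. The log2 difference of PPARG was 3.30 for the combination against WM1119 (SE 0.53, adjusted p = 0.0387 by edgeR) and -2.30 for WM1119 against DMSO (SE 0.54, unadjusted p = 0.00391, adjusted p = 0.525 by edgeR).

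Levels over the 8 libraries, as log2(CPM + 1), were compared between genes as a description. The points share their libraries and the treatments, and replicate 2 of the combination lay at the upper end for each of the genes that rose. Among the 9 genes, Pearson's r was 0.972 for CLEC5A and CLEC12A, 0.948 for OLR1 and CLEC5A, and 0.916 for OLR1 and CLEC12A. CD36 followed the same order (r of 0.893 with CLEC5A and 0.897 with CLEC12A), and MSR1 ran against it (-0.846 with CLEC5A and -0.883 with CLEC12A). CLEC4A and STAB1 had r between -0.49 and 0.726 with every other gene, on very few counts.

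Among 11254 other genes with a mean of at least 1 CPM, the closest to CLEC12A included COL23A1 and HP (each r = 0.996). COL23A1, a membrane-bound collagen, had 35.4 and 44.8 CPM in the combination, 28.7 and 31.5 CPM with VTP50469, 24.3 and 23.0 CPM with WM1119, and 21.4 and 21.8 CPM in DMSO. Its order of groups was that of CLEC12A at a much smaller range. The closest to CLEC5A were FGR, a SRC family kinase of myeloid cells (r = 0.988), QPCT (0.986) and ELOVL3 (0.986). FGR had 22.3 and 36.1 CPM in the combination, 5.79 and 7.55 CPM with VTP50469, 2.09 and 1.92 CPM with WM1119, and 1.46 and 1.42 CPM in DMSO. The closest to OLR1 were RAB11FIP4 (r = 0.993), SERPINA1 (0.992) and CD82 (0.992). SERPINA1, the protease inhibitor alpha-1 antitrypsin, had 3.05 and 5.95 CPM in the combination, 0.196 and 0.22 CPM with VTP50469, 0.0852 and 0 CPM with WM1119, and 0 CPM in both DMSO libraries. Like OLR1, it was nearly confined to the combination in these 8 libraries, and SERPINA1 passed the count filter and the mean of 1 CPM only through the combination. A shared order of groups was fixed in advance, since all these genes were picked for their r over the same libraries. Without combination replicate 2, r of these 8 genes ran from 0.975 to 0.994.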

How the data were processed

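The authors sequenced paired-end reads of 150 bp, mapped them to hg38 with STAR 2.5.1b and deposited 1 table of expected counts per gene symbol, not normalized, for 8 libraries. How reads were counted (tool, strand setting, annotation) is not given in the sources used here, and media, RNA kits and library kits differ between paper and labels. Of the values above 0, 11.4% to 16.6% per library were not whole, and they were rounded here. Counts were tested with edgeR 4.0.16 in R 4.3.3 (TMM factors, filterByExpr with a minimum count of 10, quasi-likelihood F test, 1 fit of 4 groups, Benjamini-Hochberg adjustment over 12401 genes). The residual degrees of freedom were 4, the prior ones 2.88 and the common dispersion 0.0457. CPM uses the TMM-scaled library size. A gene was called at an adjusted p under 0.05. The scripts were tested on simulated data. Gene positions and lengths come from GENCODE release 44, which matched 87.5% of the symbols, and promoters from RefSeq (GRCh38.p14).

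The genes, lists and alternatives were chosen with earlier results of these data known. Named genes are all 9 receptors, for each related list the 4 genes of lowest p between combination and DMSO, and the 3 genes of highest r with each receptor called there. A few genes that this rule picks are left out of the report. The floor is 3 counts over a group. Alternatives were DESeq2 1.42.0, a fit without the count filter, RLE factors or plain library sizes in place of TMM, a replicate block, a fit of only the groups compared, each library left out, and, added after the values were seen, an offset for transcript length and GC content.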

Additional observations from a re-analysis of the deposited data

How the results depend on the processing

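Over 15 alternative settings, the 29 log2 differences of the 5 tested receptor genes were refitted 428 times. The direction and the side of the threshold were kept in 372 refits, 21 lost a call, 28 gained one and 7 turned the direction. Of the 9 receptor genes, the combination against DMSO had 3 called, 0 with only the groups compared, and 0 to 5 as 1 library was left out. VTP50469 against DMSO had 0 called, 1 with DESeq2, no count filter or the length and GC offset, 2 with only the groups compared, and 0 to 1 as 1 library was left out. The combination against VTP50469 had 0 called, 3 with DESeq2 or the length and GC offset, 1 with no count filter, and 0 to 4 as 1 library was left out. The combination against WM1119 had 2 called, 3 with DESeq2, no count filter or the length and GC offset, 0 with only the groups compared, and 0 to 5 as 1 library was left out. The interaction had 0 called, and 0 to 2 as 1 library was left out. Genes called in all also moved, for VTP50469 against DMSO from 21 to 204 with DESeq2 and to 1332 with only the groups compared. The causes were not tested. None of the 7 log2 differences that turned was called with all libraries in the fit, and MSR1 for the combination against VTP50469 was called without combination replicate 1. As 1 library was left out, OLR1 (0 to 5.44), CLEC5A (-0.561 to 0.0223), CD36 (-0.0315 to 0.187, and -0.00226 without DMSO replicate 1) and MSR1 (-0.169 to 0.819) moved for WM1119 against DMSO, OLR1 to no difference since both groups were then at 0. The CD36 interaction ran from -0.0781 to 0.48 and MSR1 for the combination against VTP50469 from -5.86 to 0.142. MAGOHB, a neighbour of OLR1, ran from -0.204 to 0.326 for the combination against DMSO, and was -0.0468 with library size only. The correlation of same-numbered deviations ran from -0.661 to 0.35. With 2 libraries per group, these values cannot show whether libraries of the same number share a batch. With a replicate block, edgeR called 2 of the 9 genes in the combination against DMSO, with adjusted p of 0.00866 for CLEC5A, 0.00907 for CLEC12A and 0.0555 for OLR1. The depth limits CLEC4A, CLEC7A, CD163 and STAB1, which hold 0 to 11 counts per library, and 2 libraries per group limit all tests.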
